A study of Arabidopsis thaliana with 8 samples.

Results

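The 6 *Arabidopsis* loci chosen for this account encode enzymes that make tryptophan (*ASA1*, AT5G05730, and *TSB1*, AT5G54810) and turn it into indole-3-acetaldoxime and indole glucosinolates (*CYP79B2*, AT4G39950, *CYP79B3*, AT2G22330, *CYP83B1*, AT4G31500, and *SUR1*, AT2G20610). A locus was kept if a probe set of the array was named for it in the platform annotation or in the study's own gene lists. Of the 6 loci, 1 met this rule, *CYP79B2*, with 1 probe set (252827_at). The other 5 had no named probe set and were not analysed here. The name of the *CYP79B2* probe set came only from the study's list of transcripts lowered by brassinosteroid (BR) in wild type (WT), which was drawn from the same WT arrays. The fall of *CYP79B2* in BR-treated WT seedlings is therefore what brought it in, and is given below as a description.

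RNA of whole light-grown seedlings was hybridized to 8 Affymetrix arrays, 2 for each of 4 groups: *yucca* seedlings treated with BR, *yucca* seedlings after mock treatment, WT (Col-0) seedlings treated with BR and WT seedlings after mock treatment. Treatment was immersion for 2.5 h in liquid medium with 1 μM brassinolide (BL), a BR of high activity, or in the medium without it. The labels give the seedlings' age as 10 d, while the study's methods give a lower age. *yucca* is a single mutant line in the Columbia background that overproduces auxin because a *YUCCA* gene, for a flavin monooxygenase, is overexpressed. The overexpressed gene itself was not analysed here, and the genotype labels therefore stand without that check. The study asked whether raised auxin changes the transcriptional response to BR. The methods count 2 independent biological replicates per group, and so few arrays limit how precisely any value is known.

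*CYP79B2* is a cytochrome P450 that oxidizes tryptophan to indole-3-acetaldoxime, a step it shares with its close paralog *CYP79B3*. Indole-3-acetaldoxime is a branch point. *CYP83B1* draws it into indole glucosinolates, sulfur-containing defence compounds of the cabbage family, and it can also be turned into auxin or the antimicrobial compound camalexin. In *cyp83B1* and *sur1* mutants, where the glucosinolate branch is blocked, auxin accumulates. Most auxin is made by another route from tryptophan, in which *YUCCA* enzymes carry out the last step. *MYB34* is a transcription factor that activates *CYP79B2* and other genes of the indole glucosinolate branch.

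The level of *CYP79B2* differed widely between the groups, and was highest in mock-treated WT seedlings. The intensity, in the arbitrary units deposited by the authors, was 111 and 112 on the arrays of BR-treated *yucca* seedlings and 127 and 104 on those of mock-treated *yucca* seedlings. It was 290 and 272 in BR-treated and 464 and 446 in mock-treated WT seedlings. The WT groups did not overlap each other or either *yucca* group, whereas the range of the *yucca* BR arrays lay inside that of the *yucca* mock arrays. The means were 111 ± 0.813 (SD, n = 2) for *yucca* BR, 115 ± 16.2 (SD, n = 2) for *yucca* mock, 281 ± 13.1 (SD, n = 2) for WT BR and 455 ± 12.4 (SD, n = 2) for WT mock. From low to high, the order was thus *yucca* BR, *yucca* mock, WT BR and WT mock, and the lowest pair in that order differed by less than the spread between *yucca* mock replicates.

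Levels of the 2 genotypes were not on a common scale as deposited, because the arrays of each genotype had been normalized separately. Between 19 and 87 probe sets had exactly equal intensities in any pair of arrays of the same genotype, and 0 in any pair across genotypes. The median intensity was 44.7 to 46.4 on the *yucca* arrays and 86.8 to 90.1 on the WT arrays. Genotypes were therefore compared after quantile normalization over all 8 arrays, which gives every array the same distribution. It cannot undo differences that the separate normalization left in single probe sets. For every gene compared between genotypes here, genotype and separate normalization therefore cannot be told apart. On that scale *CYP79B2* was at 154 and 161 in *yucca* BR and 173 and 149 in *yucca* mock seedlings, against 211 and 191 in WT BR and 332 and 315 in WT mock seedlings. Every *yucca* array remained below every WT array, but the gap between *yucca* and BR-treated WT seedlings was narrower than on the deposited scale. The position of *CYP79B2* within its own array sets its quantile-normalized value, so it must give the same order and is no second check. It stood at or above 68.3% and 69.3% of probe sets on the *yucca* BR arrays, 70.9% and 67.6% on the *yucca* mock arrays, 75.1% and 73.0% on the WT BR arrays and 83.2% and 82.4% on the WT mock arrays.

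**Figure D1:**
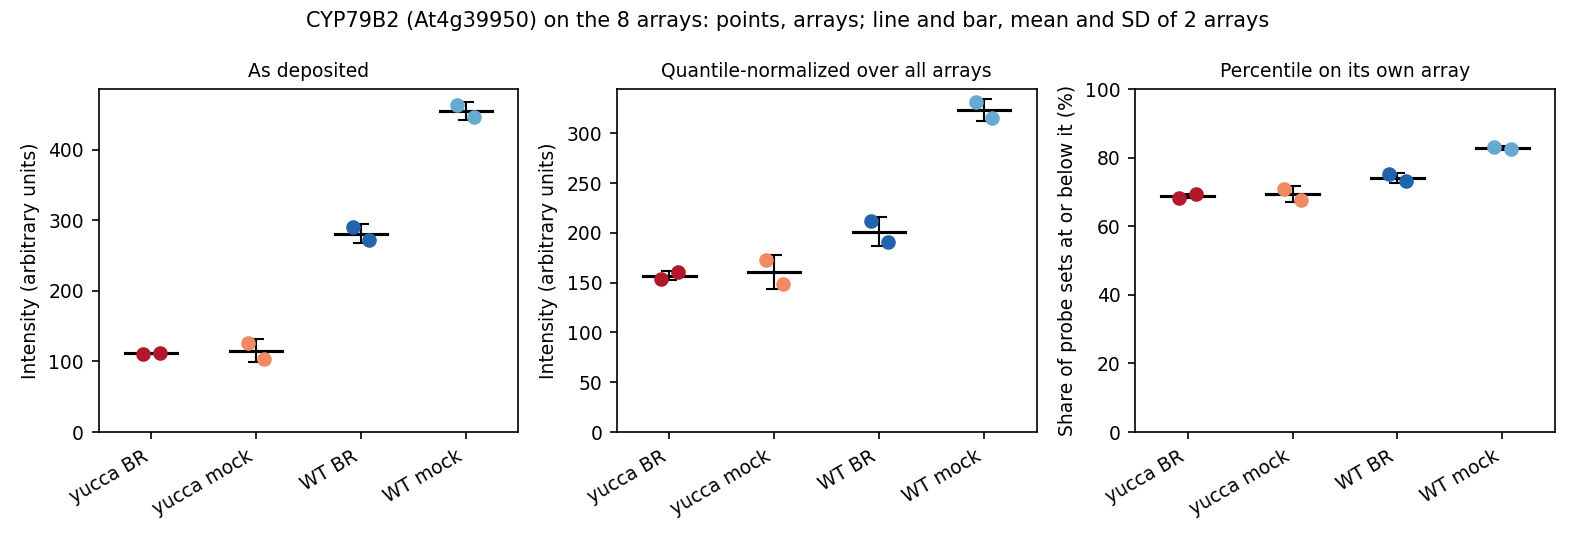
Level of *CYP79B2* on each of the 8 arrays, as deposited (left, intensity in arbitrary units), after quantile normalization over all arrays (middle, same units) and as the percentage of probe sets at or below it on its own array (right). Points are arrays, and lines and bars are the mean and SD of 2 arrays. In all 3 panels the WT mock arrays are highest and the *yucca* groups overlap.

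In BR-treated WT seedlings *CYP79B2* was lower on both arrays than on both mock arrays, by a log2 fold change of −0.70 (standard error 0.111), or 61.7% of the mock level. A transcript was called, here and below, at the criteria of the study's methods, a Benjamini-Hochberg adjusted p under 0.10 together with B, the log odds that the transcript changed, above 0, in a limma fit of all 22746 probe sets. By that rule 2.15% of all probe sets were called in BR-treated WT seedlings, 0.945% lower and 1.21% higher. *CYP79B2* met it, but the same arrays had put it on the study's list, so the call is no independent evidence. Its log2 fold change was the 198th lowest of 22746. The call was lost when any of the 4 WT arrays was left out, with log2 fold changes between −0.74 and −0.65. These are whole seedlings, in which fewer cells of a type and less RNA per cell cannot be told apart.

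In *yucca* seedlings, whose arrays took no part in naming the probe set, no BR response of *CYP79B2* was detected. The log2 fold change was −0.04 (standard error 0.111), with adjusted p = 0.916 from limma, and its unadjusted 95% interval ran from −0.29 to 0.21. As a ratio of BR to mock the interval ran from 0.817 to 1.16. By the same rule 3.42% of all probe sets were called in BR-treated *yucca* seedlings, 1.66% lower and 1.76% higher. This share exceeds that in WT only where the genotypes share 1 estimate of the spread. Fits of 1 genotype alone called fewer in *yucca* (228 higher and 184 lower) than in WT (342 higher and 297 lower). The sign of the *CYP79B2* value rested on 1 array. It was 0.10 without *yucca* mock replicate 1 and −0.19 without *yucca* mock replicate 2.

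The responses of the 2 genotypes differed by 0.65 on the log2 scale, *yucca* minus WT (standard error 0.157, unadjusted 95% interval 0.30 to 1.01). This difference was not called (adjusted p = 0.309 from limma, unadjusted p = 0.00237). It takes in the WT response through which *CYP79B2* was chosen, so it is no independent test. Among all probe sets 6 (0.0264%) were called, 0.00879% with a more positive and 0.0176% with a more negative response in *yucca*. That count depends on the model. With the replicate number as a block it was 68 more positive and 111 more negative. *CYP79B2* was not called there either (adjusted p = 0.133 from limma). The difference for *CYP79B2* was larger than that of 99.3% of probe sets. A loss of the BR response in *yucca* was thus not shown for this gene.

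*CYP79B2* measured lower in *yucca* than in WT seedlings, a comparison in which genotype and separate normalization coincide. Averaged over both treatments, the quantile-normalized level was lower by a log2 fold change of −0.68 (standard error 0.074, 95% interval −0.85 to −0.51), or 62.3% of the WT level, with adjusted p = 5.9e-05 from limma. All 4 *yucca* arrays were below all 4 WT arrays. This average makes no use of the difference between BR and mock in WT, although the small spread of the WT arrays that helped put *CYP79B2* on the study's list also enters its standard error. By the same rule 27.6% of all probe sets were called, 14.2% lower and 13.4% higher in *yucca*, so a call in this comparison was common. The log2 fold change stayed between −0.74 and −0.63 when any array was left out, and was called each time.

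The difference between genotypes was also read within each treatment. After mock treatment the log2 fold change of *yucca* over WT was −1.01 (standard error 0.105), 49.7% of the WT level. After BR treatment it was −0.35 (standard error 0.105), 78.2% of the WT level. The gap between the 2 values is the difference of BR responses given above, which was not called. These values are descriptions, since each uses WT arrays on which the gene was chosen, and they share the *yucca* and WT arrays with the comparisons above. Among all probe sets 17.4% were called after mock treatment, 8.79% lower and 8.56% higher in *yucca*, and 16.8% after BR treatment, 8.56% lower and 8.26% higher. *CYP79B2* met the call rule after mock treatment and did not after BR treatment. On the values as deposited the log2 fold changes were −1.99 and −1.33, when the median of all probe sets was itself −0.87 and −0.86.

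**Figure D2:**
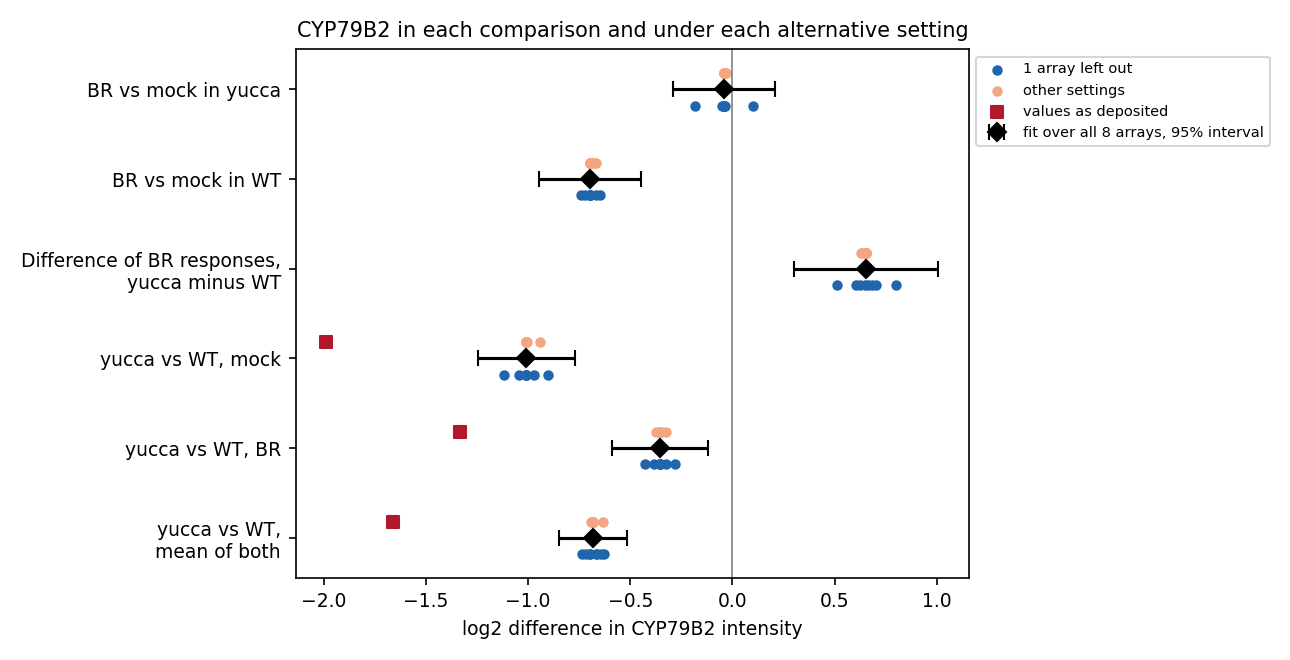
Log2 difference of *CYP79B2* in each comparison, with the 95% interval of the fit over all 8 arrays (diamonds), the values with 1 array left out (blue), under other settings (orange) and, between genotypes, on the values as deposited (red squares). The interval of BR against mock in *yucca* spans 0, and the 3 comparisons of *yucca* with WT lie below 0 under every setting drawn.

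The 2 genes whose pattern over the 8 arrays was nearest to that of *CYP79B2* were At1g75460 and At5g62900. Likeness was the root mean square difference of quantile-normalized log2 values, each centred on its own mean, over 6313 candidate probe sets. It was 0.117 for At1g75460 and 0.133 for At5g62900. As deposited, At1g75460 was at 259 and 255 in *yucca* BR and 276 and 302 in *yucca* mock seedlings, against 679 and 614 in WT BR and 1080 and 960 in WT mock seedlings. Like *CYP79B2*, it was highest in mock-treated WT seedlings, and every *yucca* array was below every WT array, but its *yucca* groups did not overlap. Both genes are also on the study's list of transcripts lowered by BR in WT.

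The pathways around *CYP79B2* were covered thinly. Of 81 listed genes of chorismate supply, tryptophan, auxin, camalexin and indole glucosinolate synthesis, 17 had a named probe set, *CYP79B2* among them. Of the other 16, 4 were also on the study's lists drawn from these WT arrays (*CM1*, *UGT74B1*, *MYB34* and *YUC3*), so that their WT responses are not independent evidence. After BR treatment of *yucca* seedlings 1 of the 16 was called higher, 0 lower and 15 were not called. Among all probe sets 3.42% were called. The median log2 fold change was 0.08, against 0.00 for all probe sets. With adjusted p under 0.10 from limma but B below 0, *CM1* (−0.76), *UGT74B1* (−0.55), *IGPS* (−0.49) and *DHQS* (−0.34) were lower. *GTR1* (0.71) was higher on the same terms. In a fit of the *yucca* arrays alone none of these had an adjusted p under 0.10 (0.113 to 0.272 from limma). After BR treatment of WT seedlings 1 was called higher, 0 lower and 15 were not called, where 2.15% of all probe sets were called. The median was −0.08, against −0.01. In a fit of the WT arrays alone, with a spread of their own, 3 of the 15 were also called lower, *CM1* (−0.52), *UGT74B1* (−0.61) and *MYB34* (−0.49), which are those on the study's list of transcripts lowered by BR in WT. Among all 22746 probe sets that fit called 342 higher and 297 lower. A fit of the *yucca* arrays alone called 1 of the 16 higher and 0 lower, against 228 higher and 184 lower among all 22746. Averaged over both treatments 1 was higher, 4 were lower and 11 were not called in *yucca*, with a median of −0.36, against −0.01. The 5 called of 16 are close to the 27.6% called among all probe sets.

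*MYB34* (At5g60890), the activator of *CYP79B2*, differed most between genotypes of all these genes. Its intensity was 19.0 and 21.2 in *yucca* BR and 27.6 and 23.1 in *yucca* mock seedlings, against 111 and 118 in WT BR and 161 and 162 in WT mock seedlings. The *yucca* arrays lay far below the WT arrays, and within its own array *MYB34* stood at or above 34.9% to 41.3% of probe sets in *yucca*, against 54.5% to 61.5% in WT. Averaged over both treatments *MYB34* was lower in *yucca*, with a quantile-normalized log2 difference of −1.68 (standard error 0.0776) and adjusted p = 4.6e-07 from limma. After 16 was added to each intensity it was −1.29. Its BR response was −0.33 (standard error 0.112, adjusted p = 0.137 from limma) in *yucca* and −0.49 (standard error 0.112) in WT, and neither was called in the fit of all 8 arrays. *MYB34* and *CYP79B2* were both lower in *yucca*, and whether the level of one bears on the other was not tested. The other regulators measured, *MYC3* and *MYC4*, were not called in any comparison. Averaged over both treatments they too were lower in *yucca*, with quantile-normalized log2 differences of −0.32 (adjusted p = 0.00999 from limma) and −0.49 (adjusted p = 0.0146), both with B below 0.

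*UGT74B1* (At1g24100), a glucosyltransferase that acts later in the same branch, was not called in any comparison in the fit of all 8 arrays, and was chosen for description after its values were seen. Its intensity was 149 and 140 in *yucca* BR and 244 and 184 in *yucca* mock seedlings, against 277 and 258 in WT BR and 412 and 403 in WT mock seedlings. The BR and mock arrays did not overlap in either genotype, with log2 fold changes of −0.55 in *yucca* (standard error 0.131, adjusted p = 0.0393 from limma, B below 0) and −0.61 in WT (standard error 0.131). In a fit of the *yucca* arrays alone the adjusted p of *UGT74B1* was 0.199 from limma. Averaged over both treatments it differed between *yucca* and WT by a quantile-normalized log2 fold change of 0.06 (95% interval −0.14 to 0.25). Whether its responses and those of *CYP79B2* differ was not tested.

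The glucosinolate transporters differed between genotypes in opposite directions after quantile normalization, though not on the values as deposited. Averaged over both treatments *GTR2* (At5g62680) was lower in *yucca*, with a quantile-normalized log2 difference of −0.93 (standard error 0.0831) and adjusted p = 1.81e-05 from limma. *GTR1* (At3g47960) was higher by 0.89 (standard error 0.126, adjusted p = 0.000294), a call that was lost without WT BR replicate 1 (0.85), WT mock replicate 1 (0.85) or WT mock replicate 2 (0.92). On the values as deposited *GTR1* was at −0.09, where the median of all probe sets was −0.86. Neither transporter was called for BR within a genotype.

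Among genes that feed the branch, *INS* (At4g02610), a homolog of the tryptophan synthase alpha subunit that releases free indole, was lower in *yucca* averaged over both treatments (quantile-normalized log2 fold change −0.72, standard error 0.115, adjusted p = 0.000601 from limma). The call was lost without *yucca* BR replicate 1 (−0.65), without either WT BR array (−0.77 and −0.67) and without either WT mock array (−0.75 and −0.68). *IGPS* (At2g04400), which makes the indole ring, and *DHS3* (At1g22410) and *DHQS* (At5g66120) of chorismate supply were not called in any comparison. After BR in *yucca*, *IGPS* was at −0.49 (adjusted p = 0.0309 from limma) and *DHQS* at −0.34 (adjusted p = 0.0857), both with B below 0. In a fit of the *yucca* arrays alone their adjusted p values were 0.167 and 0.272 from limma. For *yucca* against WT averaged over both treatments, *DHQS* was at −0.40 (adjusted p = 0.000936 from limma) and *IGPS* at 0.24 (adjusted p = 0.0147), again with B below 0. *CM1* (At3g29200), which diverts chorismate away from tryptophan, was not called in the fit of all 8 arrays either, but was called lower after BR in that of the WT arrays alone. In the fit of all 8 arrays its log2 fold change after BR was −0.76 in *yucca* (adjusted p = 0.014 from limma, B below 0). In WT it was −0.52 (adjusted p = 0.123 from limma). A fit of the *yucca* arrays alone did not call *CM1* (adjusted p = 0.113 from limma).

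Of the 5 *YUCCA*-family genes measured, *YUC3* was called for BR, where 3.42% of all probe sets were called in *yucca* and 2.15% in WT. *YUC3* (At1g04610) was at 45.7 and 35.9 in *yucca* BR and 21.6 and 19.9 in *yucca* mock seedlings, against 112 and 122 in WT BR and 59.2 and 66.3 in WT mock seedlings. It was higher after BR than after mock treatment in both genotypes with no overlap, unlike *CYP79B2*, which was lower in WT and overlapped in *yucca*. In *yucca* the rise was 0.97 on the log2 scale (standard error 0.13), with adjusted p = 0.00246 from limma. With 16 added to each intensity it was 0.62 and still called. In WT the log2 fold change was 0.90 (standard error 0.13), but the gene was named only through the study's list of transcripts raised by BR on those arrays. The WT call was lost without WT BR replicate 2 (0.84) or WT mock replicate 1 (0.81). Averaged over both treatments *YUC3* was lower in *yucca*, with a quantile-normalized log2 difference of −0.63 (standard error 0.087) and adjusted p = 0.000252 from limma, a call lost without WT BR replicate 2 (−0.61) or WT mock replicate 2 (−0.59). *YUC2*, *YUC4*, *YUC6* and *YUC11* were not called for BR in either genotype. *YUC4* stood at or above only 8.49% to 23.1% of probe sets on its own array, and *YUC11* 4.96% to 12.5%. At such low intensities a missing call says little about a response.

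**Figure D3:**
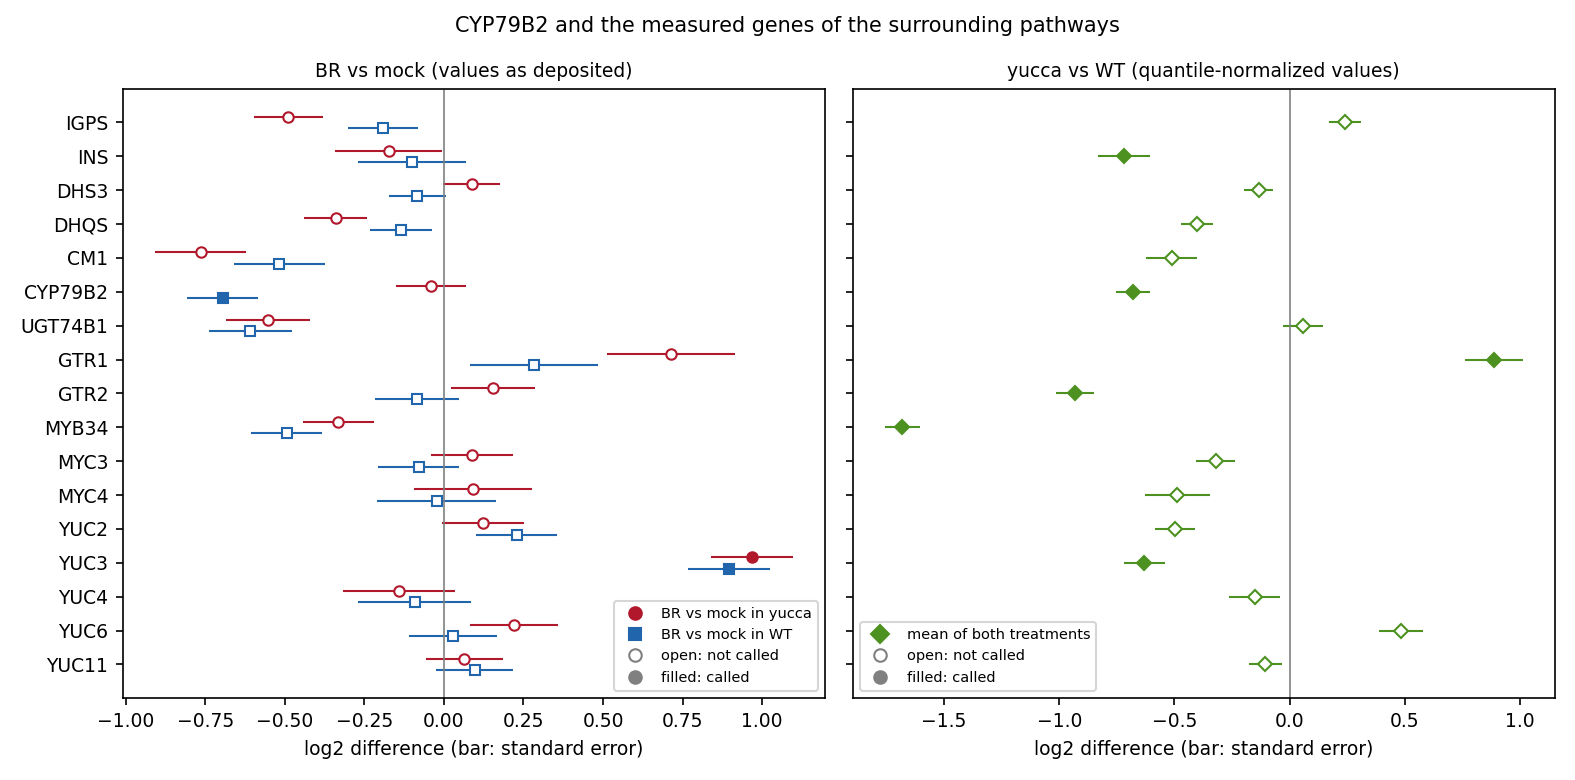
Log2 differences of *CYP79B2* and the 16 other measured pathway genes for BR against mock in *yucca* (red circles) and WT (blue squares), left, and for *yucca* against WT averaged over both treatments (green diamonds), right. Bars are standard errors and filled symbols were called. *MYB34*, *GTR2*, *INS*, *CYP79B2* and *YUC3* were lower and *GTR1* was higher (−0.09 on the values as deposited) in *yucca*, and *YUC3* was higher after BR in both genotypes.

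Markers of organs and of handling were checked beside these results. The leaf marker *RCA*, 1 of 10 listed leaf genes with a name here, was among the highest intensities on every array (9257 to 9919 in *yucca* and 14590 to 14804 in WT). Of 10 listed root markers 3 had a name. *PYK10* was not called in any comparison, while *TIP2;3* and *COBL9* were lower in *yucca* averaged over both treatments, by quantile-normalized log2 fold changes of −1.91 and −0.73. Both of these were named through the study's list of transcripts lowered by auxin in other seedlings. The summed quantile-normalized intensity of the 3 root markers, 4666 to 5225 in *yucca* and 4746 to 5470 in WT, was almost wholly that of *PYK10* (4541 to 4973 and 4139 to 4973) and does not show the lower levels of the other 2. *AOS*, a jasmonate synthesis enzyme and 1 of 11 listed jasmonate and wounding genes with a name, was higher in *yucca* averaged over both treatments by 0.84, against −0.14 on the values as deposited. No marker was called for BR in the fit of all 8 arrays. *AOS*, however, is on the study's list of transcripts lowered by BR in WT, as is *CYP79B2*. Its log2 fold change after BR was −0.35 in *yucca* (adjusted p = 0.213 from limma) and −0.58 in WT, where a fit of the WT arrays alone called it lower. *TIP2;3* was at 1.01 after BR in *yucca* (standard error 0.223, adjusted p = 0.029 from limma, B below 0) and 0.46 in WT. In a fit of the *yucca* arrays alone its adjusted p was 0.13 from limma. The part of these markers in the level of *CYP79B2* was not tested.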

How the data were processed

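The authors normalized the arrays with rma in the affy package of Bioconductor, a method that removes background, equalizes the distributions of arrays and combines probes into probe sets, and deposited 1 linear intensity per probe set and array for 22810 probe sets. Versions are not given in the sources used here. After removal of 64 control probe sets, log2 values of the other 22746 entered limma 3.58.1 (R 4.3.3), in a model of 4 group means with moderated spreads and an assumed proportion of changed genes of 0.01. P-values were adjusted by Benjamini and Hochberg over all probe sets for each comparison. Comparisons between genotypes used values quantile-normalized over the 8 arrays. The fits were also run on simulated data, with independent arrays and the same spread for every probe set of an array. Such data do not test how the moderated spreads perform on the real arrays.

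The platform annotation names a single locus for 13484 probe sets, and the study's lists named 486 more. The members, the gene lists and the tests were chosen with earlier results of these data known. Named genes are the members, the called genes of the pathway lists, and the 2 genes nearest in pattern with a mean log2 value of at least 6. Pathway genes that were not called were named after their values were seen. The comparison averaged over both treatments was added after the naming of the probe set was seen. As alternatives, the fit was limited to the groups being compared, the replicate number was a block, the adjusted p had to be under 0.05, or B was ignored. Others were an intensity trend, leaving out probe sets with a mean log2 under 5, adding 16 to each intensity, other normalizations between arrays, and leaving out each array. Only nominal 95% intervals are given, and they are not adjusted for the number of probe sets. No sequences of the members were at hand, so none is shown.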

Additional observations from a re-analysis of the deposited data

How the results depend on the processing

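For *CYP79B2*, the difference of BR responses (0.51 to 0.80 with 1 array left out, 0.63 to 0.65 otherwise) and the differences between *yucca* and WT after mock treatment and averaged over both treatments kept their direction and their side of the threshold under every alternative run. On the values as deposited the last 2 were −1.99 and −1.66. BR against mock in WT kept its call under all settings but those that left out a WT array (−0.74 to −0.65). BR against mock in *yucca* was not called under any, and ran from −0.19 to 0.10 with 1 array left out. *yucca* against WT after BR treatment (−0.35) was called with no B criterion (−0.35) and on the values as deposited (−1.33), which keep the shift in level between genotypes, and was −0.43 to −0.28 with 1 array left out. Of 315 alternative values of the other called genes, 279 kept direction and call, 33 lost the call and 3 turned sign, all on the values as deposited: *AOS* after BR (−0.029) and on average (−0.14), and *GTR1* on average (−0.095). Same-numbered arrays had deviations that correlated at 0.407 in *yucca* and 0.226 in WT, with only 2 pairs per genotype. The main fit did not take the numbers as pairs, and whether such arrays were paired was not settled. With the replicate block *CYP79B2* kept each call (−0.70 in WT, −0.04 in *yucca*, 0.65 for their difference with adjusted p = 0.133 from limma, −1.01, −0.35 and −0.68 between genotypes), *INS* lost its call (−0.72), and the difference of responses was called for 68 more positive and 111 more negative probe sets, against 2 and 4. In fits of 1 genotype alone, *CM1*, *UGT74B1*, *MYB34* and *AOS* were called lower after BR in WT, where 297 probe sets were. Among all probe sets, the count lowered by BR was 215 in WT (88 to 457 over the alternatives) and 377 in *yucca* (184 to 1056). In fits of 1 genotype alone the count lowered by BR was 297 in WT and 184 in *yucca*, the reverse order. The count lower in *yucca* on average was 3225, and 18082 as deposited. The split of higher against lower was 3057 against 3225, and 4026 against 2619 with array medians set equal, which moved the median of all probe sets to 0.11. With 2 arrays per group, small responses cannot be detected.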
